A study of Caenorhabditis elegans with 2 samples.

Results

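SEM-4 is a Spalt-type DNA-binding protein with zinc fingers, and its occupancy was examined at 40 panneuronal and synaptic genes of Caenorhabditis elegans, out of 19973 annotated protein-coding genes. The 40 genes were taken from a fixed list of names and all of them were matched by symbol to the Ensembl annotation. The data were peak lists from chromatin immunoprecipitation followed by sequencing (ChIP-seq) of eGFP-tagged SEM-4 in whole L2 larvae of both sexes, with 1 group of 2 biological replicates and no second condition. Both replicates were of strain OP57, which carries unc-119(ed3) on chromosome III and the insertion wgIs57 of tagged sem-4. The label names sem-4 as the antibody target, while the experiment's own description names the eGFP fusion. The tagged protein is a transgene product. The antibody used is not stated, so whether untagged SEM-4 was also measured is unknown. Whole animals mix neurons with every other tissue that holds the protein. The labels do not describe the culture of either replicate, so the spread between replicates may be technical.

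Panneuronal genes are those that nearly every neuron uses, whatever its transmitter or target. They encode the machinery that loads, docks, fuses and recovers synaptic vesicles, the motors that carry vesicle precursors along axons, and the scaffolds that build a synapse. SEM-4 is known from genetics to control the fates of particular neurons, such as the touch receptor neurons and the egg-laying HSN neurons. Several genes of the list, among them dyn-1, unc-116, klc-2, egl-19 and unc-70, also act outside neurons.

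A peak was placed by its summit. The promoter window of a gene covered the 1000 bp before each annotated transcript start and the 200 bp after it, and the gene body ran from its first to its last annotated base. A summit is called reproducible where its peak belonged to the authors' list of 2490 peaks thresholded by the irreproducible discovery rate (IDR). It is called relaxed only where its peak belonged to the remainder of the pooled list of 30000 peaks. The 2490 peaks were exactly those of highest signal in the pooled list, with a lowest signal of 40.3. Signal is the authors' value for each peak, on a scale that differs between lists, so the replicates are compared by rank, with rank 1 the highest. The lists hold no read counts, so the depth is unknown and no counting error can be given. The −log10 q-value did not separate the peaks, since all 2490 held the maximum of 3.70. Coordinates are on ce11.

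The summit sequences of 4 of the 5 members with the strongest reproducible promoter summits are shown first, because these sites lead the members by signal within the promoter window. Unc-14, with the third-highest signal, is named without its sequence. Each is the summit base with 50 bases on either side, 5′ to 3′ on the plus strand of the RefSeq WBcel235 genome. Capitals mark matches on either strand to 6 words, overlaps included: GAGAGA, the related words TTGTCT and also TTGTGT, the AT-rich word ATATT, the E-box CACGTG and the GATA-type word TGATAA. The unc-76 sequence was added after its values were seen, because it held 6 overlapping or neighbouring GAGAGA matches. They lie at chrX:10555709-10555809 for syd-2, chrIII:9546098-9546198 for unc-16, chrX:15568413-15568513 for dyn-1, chrII:6994842-6994942 for unc-104 and chrV:15071391-15071491 for unc-76.
syd-2: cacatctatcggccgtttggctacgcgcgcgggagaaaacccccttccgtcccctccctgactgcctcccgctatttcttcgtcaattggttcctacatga
unc-16: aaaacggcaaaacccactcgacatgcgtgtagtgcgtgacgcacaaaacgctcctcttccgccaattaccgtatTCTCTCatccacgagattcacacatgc
dyn-1: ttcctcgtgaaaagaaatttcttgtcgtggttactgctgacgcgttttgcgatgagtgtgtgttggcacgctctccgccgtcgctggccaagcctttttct
unc-104: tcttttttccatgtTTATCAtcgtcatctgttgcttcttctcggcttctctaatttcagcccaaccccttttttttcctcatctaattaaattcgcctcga
unc-76: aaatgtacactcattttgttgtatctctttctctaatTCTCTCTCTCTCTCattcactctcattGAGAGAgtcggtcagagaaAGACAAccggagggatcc

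Of the 40 members, 16 (40%) held a reproducible SEM-4 summit in the promoter window, against 1740 (8.71%) of all protein-coding genes. They were snb-1, tom-1, rab-3, rgef-1, maco-1, egl-21, dyn-1, unc-36, syd-2, unc-104, unc-116, unc-16, unc-14, unc-76, unc-33 and unc-70. Another 18 members had relaxed summits only there, so that 34 (85.0%) held a pooled summit of either kind, against 38.5% of all protein-coding genes. Unc-13, cpx-1, unc-10, aex-3, egl-3 and rpm-1 had no pooled summit in the window. Among genes with any pooled summit in the window, 47.1% of the members and 22.6% of all protein-coding genes had a reproducible one. The members were chosen with earlier results of these data known, and no test was made of these shares.

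The members were searched over more sequence than an average gene. Their median number of annotated starts was 2, against 1 for all protein-coding genes, and their median window covered 1365.5 bp against 1201 bp. Per 10 kb of window, the members held 1.86 reproducible summits, against 0.625 for all protein-coding genes. The 10 members with a single annotated start included 5 (50%) with a reproducible summit, against 7.01% of all single-start genes. The 30 members with more starts included 11 (36.7%), against 13.2% of all such genes. Pooled summits of either kind were in the windows of 8 of the 10 (80%), against 31.6% of all single-start genes, and of 26 of the 30 (86.7%), against 56.9%.

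**Figure D1:**
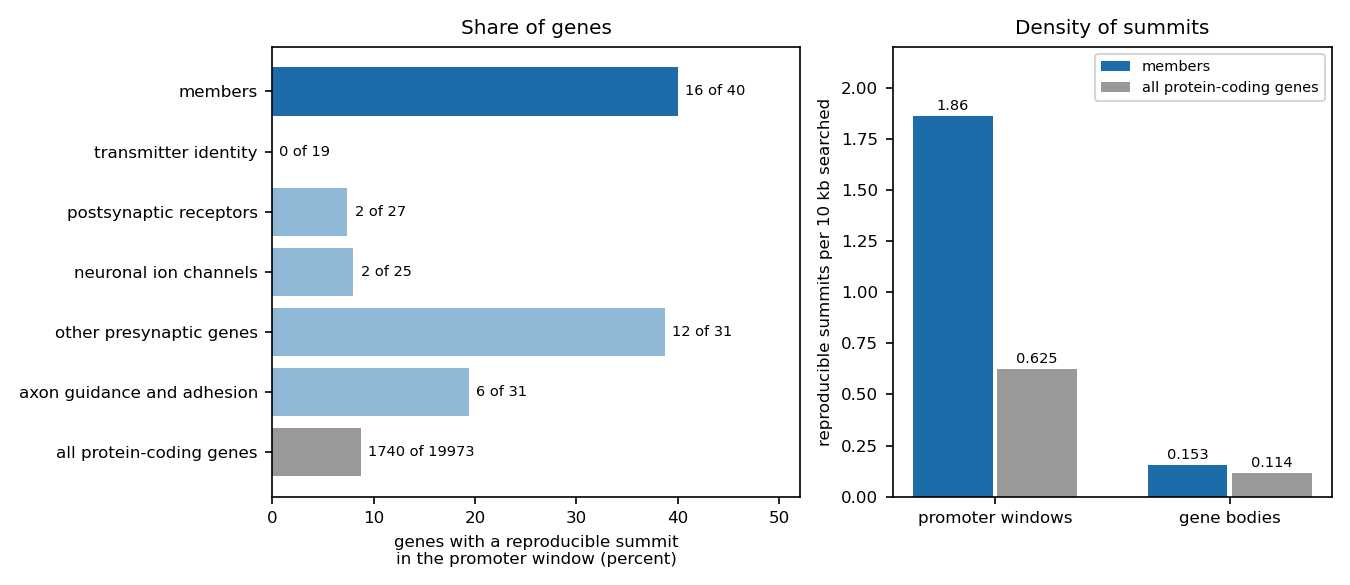
Left, the percentage of genes with a reproducible summit in the promoter window for the 40 members, for 5 lists of other neuronal genes and for all protein-coding genes, with the counts beside the bars. Right, reproducible summits per 10 kb of sequence searched, members (blue) beside all protein-coding genes (grey): the members stood at 1.86 against 0.625 in promoter windows and at 0.153 against 0.114 in gene bodies.

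Among genes with any pooled summit in the window, the median best signal was 36.7 over 34 members and 19.7 over 7688 protein-coding genes. This difference was not tested. Among genes with a reproducible summit there, the signal at the members was no higher than over all such genes. Among the 16 members with a reproducible promoter summit, the best signal had a median of 54.3 and ran up to 111, while for the 1740 genes of all kinds the median was 61.7 and the highest 740. Of the 40 members, 6 (15%) had a window summit among the 1245 reproducible peaks of highest signal, namely rab-3, dyn-1, syd-2, unc-104, unc-16 and unc-14, against 982 (4.92%) of all protein-coding genes.

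**Figure D2:**
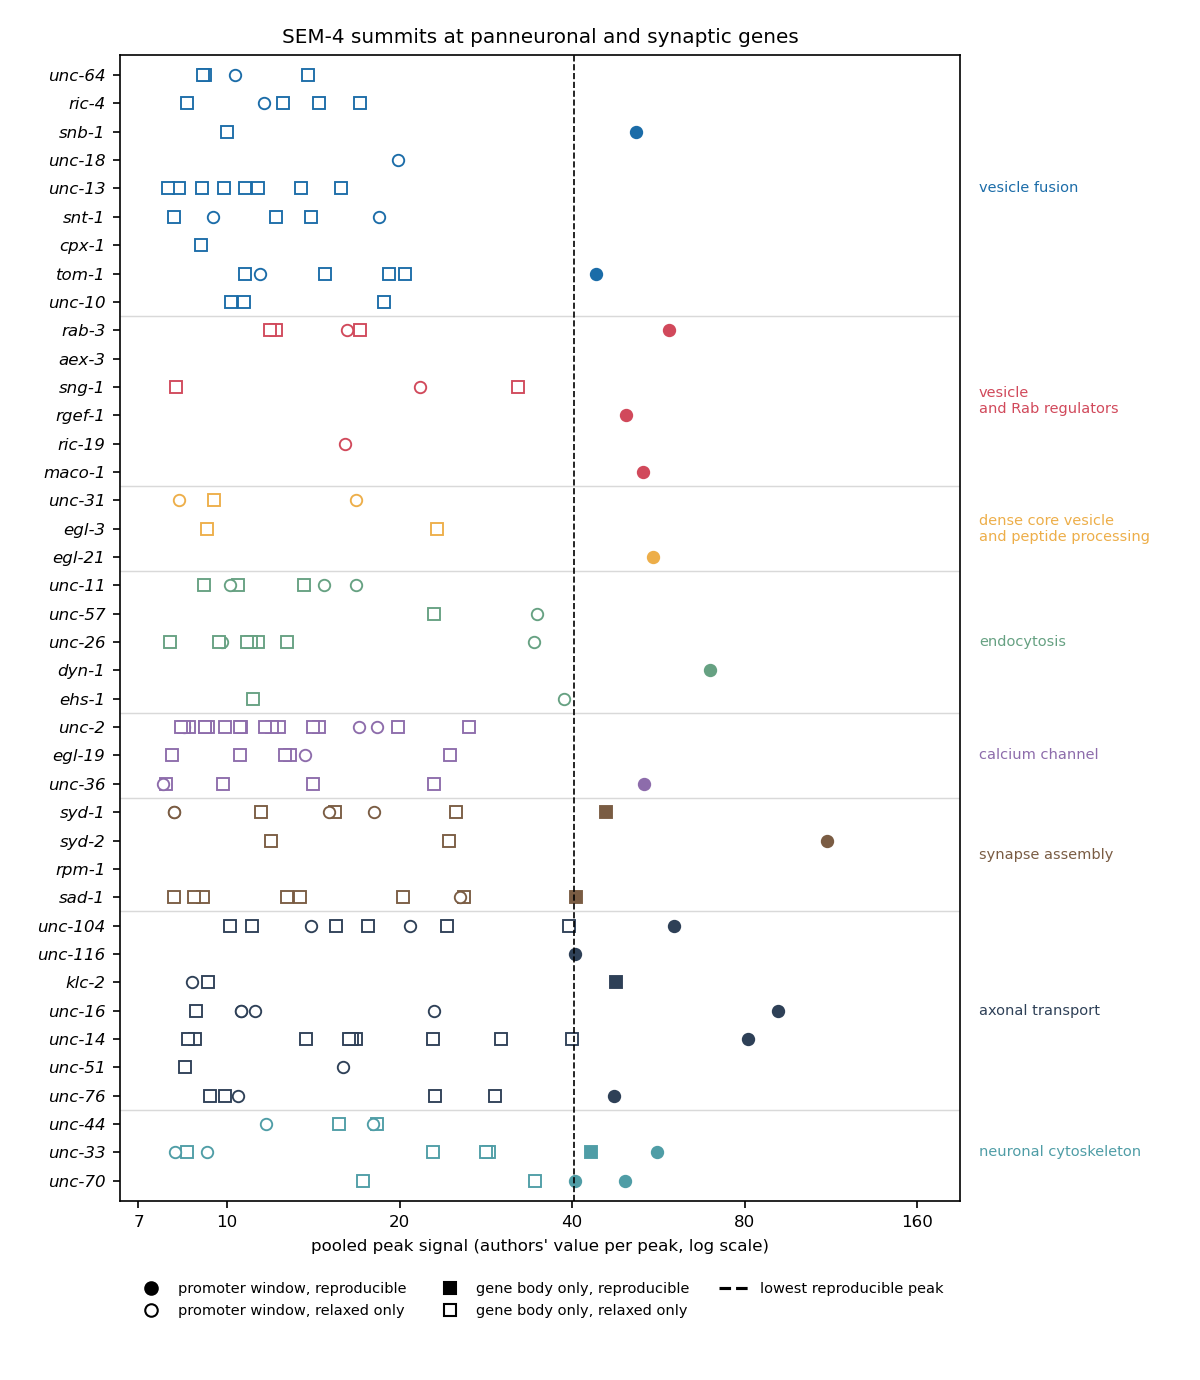
Pooled signal (log scale) of every SEM-4 summit in the promoter window (circles) or in the gene body only (squares) of each member, grouped by role, filled where reproducible. The dashed line is the lowest reproducible signal, 40.3; syd-2, unc-16 and unc-14 stand highest, and aex-3 and rpm-1 have no summit.

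Of the 9 genes of the vesicle fusion machinery, 2 were reproducible in the promoter window, snb-1 and tom-1, beside 8.71% of all protein-coding genes. Counts by role rest on 3 to 9 genes each, and differences between roles were not tested. Snb-1, which encodes synaptobrevin, the SNARE protein of the vesicle membrane (V, 6655562 to 6656501, minus strand), had a summit of 51.8 at 361 bp upstream. It ranked 4727 in replicate 1 (signal 18.4) and 865 in replicate 2 (29.8), so replicate 2 held it much higher. Tom-1, the tomosyn gene, whose product inhibits vesicle priming (I, 5546118 to 5561689, plus strand), had a summit of 44 at 414 bp upstream. It ranked 2278 in replicate 1 (27.04) and 5349 in replicate 2 (11.4), the opposite order, and the replicate 2 summit lay 130 bp away.

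The other fusion genes had only relaxed summits or none in the window. The syntaxin gene unc-64 had a best window signal of 10.3, and ric-4, a SNAP-family SNARE gene, had 11.6. Unc-18, which encodes the Sec1-type partner of syntaxin, had 19.9 at 232 bp upstream. The calcium sensor gene snt-1 (synaptotagmin) had 18.4 at 369 bp upstream. The best of these ranked 7881 in the pooled list, well below the 2490 reproducible peaks. Unc-13, the vesicle priming factor, held no window summit, although its body of 31332 bp held 8 relaxed ones, the best at 15.8. Cpx-1, the complexin gene, had a body summit of 9.01 over its own 3' UTR. Unc-10, the RIM active zone gene, had 18.8 in an intron.

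Among the genes of vesicle proteins and Rab regulation, 3 of 6 were reproducible in the window, beside 8.71% of all protein-coding genes. Rab-3, the small GTPase of synaptic vesicles (II, 5721767 to 5727853, minus strand), had a summit of 58.9 in its own long intron, 619 bp upstream of its second start. Its ranks were 550 in replicate 1 (52.7) and 4492 in replicate 2 (12.7). The start at the 5' end of the gene held a separate relaxed summit of 16.2, at 6 bp downstream in the 5' UTR. With the 5'-most start alone, rab-3 would not count as reproducible. Rgef-1, a Ras guanine nucleotide exchange factor whose promoter is widely used to drive panneuronal expression (V, 9556027 to 9561674, minus strand), had 49.6 at 332 bp upstream. It ranked 1592 in replicate 1 (32.4) and 3434 in replicate 2 (15.0).

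Maco-1, which encodes the membrane protein macoilin (I, 6598982 to 6607520, minus strand), had 53.1 at 613 bp upstream and ranked 894 in replicate 2 (29.4). In replicate 1 the peak was split: the overlapping peak with the nearest summit ranked 12270 (10.8, offset 120 bp), and another at 146 bp ranked 1838 (30.2). The maco-1 rank in replicate 1 thus depends on which of these is matched. Sng-1, a synaptogyrin gene, had 21.7 in the window, over an exon of the non-coding RNA gene T08A9.17, and 32.1 in a coding exon. Ric-19 had 16.1 at 218 bp upstream, a summit that the window of pmlr-1 also held, at 210 bp from its start. Aex-3, which encodes an exchange factor for RAB-3, held no pooled summit in its window or body. Replicate 2's own list placed a peak of 12.3 there, 796 bp upstream at rank 4690, and replicate 1's list placed one of 6.09 at 369 bp, rank 28371.

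Of the 3 genes of the dense core vesicle and peptide processing group, egl-21 alone was reproducible in the window, beside 8.71% of all protein-coding genes. Egl-21 encodes a carboxypeptidase that trims neuropeptides (IV, 10478442 to 10481844, minus strand). Its summit of 55.3 lay 118 bp upstream and ranked 1611 in replicate 1 (32.2) and 1255 in replicate 2 (25.3), so both replicates placed it alike. Unc-31, the CAPS gene required for dense core vesicle release, had 16.8 at 423 bp upstream. Egl-3, which encodes the proprotein convertase acting before EGL-21, had no pooled summit in the window, and 23.3 in an intron 443 bp downstream of a start.

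All 5 endocytosis genes held a pooled summit in the window, beside 38.5% of all protein-coding genes. Of these, dyn-1 alone was reproducible, beside 8.71% of all protein-coding genes. Dyn-1 encodes dynamin, the GTPase that cuts vesicles from the membrane (X, 15568890 to 15573021, plus strand). Its summit of 69.6 lay 427 bp upstream, in the intergenic sequence printed above, and ranked 715 in replicate 1 (46.3) and 820 in replicate 2 (30.4). Both replicates thus held it in their upper ranks. Ehs-1, the adaptor gene of the Eps15 type, fell just below the threshold, with 38.8 at pooled rank 2676. Its ranks were 1259 in replicate 1 (35.8) and 12646 in replicate 2 (6.17). The endophilin gene unc-57 had 34.7 at 978 bp upstream (pooled rank 3255), with 19.8 in replicate 1 and 15.9 in replicate 2. The synaptojanin gene unc-26 had 34.3 at 195 bp upstream (pooled rank 3325), with 16.3 in replicate 1 and 17.3 in replicate 2. Unc-11, a clathrin assembly gene, had 16.8. These 3 genes and ehs-1 thus held only relaxed summits.

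Of the 3 calcium channel genes, the auxiliary subunit gene was reproducible in the window, beside 8.71% of all protein-coding genes. Neither pore subunit gene was. Unc-36, the alpha2/delta-type subunit gene (III, 8193843 to 8201217, minus strand), had 53.4 at 715 bp upstream, over an exon of the non-coding RNA gene C50C3.15. It ranked 912 in replicate 1 (41.3) and 2364 in replicate 2 (18.4), inside the top 2490 of both. Unc-2, the pore subunit of presynaptic calcium channels, was the longest member at 52607 bp, with 8 annotated starts and 18 pooled summits in its body. None of them passed the threshold, and the best was 26.4. Egl-19, the L-type channel gene of muscle and neurons, had 13.7 in the window, 266 bp upstream, which was nearer to a start of C48A7.16 at 161 bp.

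Of the 4 synapse assembly genes, syd-2 alone was reproducible in the window, beside 8.71% of all protein-coding genes. Its window summit was the strongest of all members, and the others of the group had weaker ones or none there. Syd-2 encodes liprin-alpha, the scaffold that organises active zones (X, 10549106 to 10555239, minus strand). Its summit at 10555759 had a signal of 111 at pooled rank 290, 520 bp upstream, and ranked 384 in replicate 1 (62.0) and 339 in replicate 2 (43.5). No other window summit of a member ranked as high in both replicates at once. Syd-1, which acts upstream of SYD-2 in synapse assembly, had 18.1 at best in the window. Sad-1, a kinase gene of neuronal polarity and synapse formation, had 25.5. Rpm-1, a ubiquitin ligase gene that restrains synapse growth (V, 8805399 to 8819955, minus strand), had no pooled summit in its window or its body of 14557 bp. No summit of either replicate's own list lay in the rpm-1 window, and each list held 2 summits in the body. The nearest reproducible summit was 116342 bp from its start.

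Of the axonal transport genes, 5 of 7 were reproducible in the window, beside 8.71% of all protein-coding genes, and all 7 had a pooled summit, beside 38.5%. Unc-104, the kinesin that carries synaptic vesicle precursors (II, 6994987 to 7010625, plus strand), had 60.2 at 95 bp upstream. It ranked 1233 in replicate 1 (36.1) and 1284 in replicate 2 (25.1), nearly the same place. A further summit of 39.4 in its body, at rank 2594, fell just below the threshold. Unc-16, a scaffold gene of the JIP type that links kinesin to cargo (III, 9546258 to 9557450, plus strand), had 91.4 at 110 bp upstream of its first start, over an exon of the non-coding RNA gene ZK1098.13. It ranked 336 in replicate 1 (64.8) and 1467 in replicate 2 (23.6). Unc-14, a RUN-domain protein gene that acts with kinesin-1 and UNC-51 (I, 7122614 to 7128246, minus strand), had 81.1 at 126 bp upstream and ranked 992 in replicate 1 (39.9) and 320 in replicate 2 (44.7). Its body held 9 relaxed summits, the best of 39.9 at rank 2546.

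The remaining transport genes lay lower. Unc-76, a kinesin adaptor gene of the FEZ type (V, 15071760 to 15080152, plus strand), had 47.3 at 319 bp upstream and ranked 2990 in replicate 1 (23.6) and 794 in replicate 2 (30.9). Unc-116, the kinesin-1 heavy chain gene (III, 8351164 to 8355174, minus strand), had 40.5 at 66 bp upstream, at pooled rank 2476. It ranked 2775 in replicate 1 (24.6) and 2683 in replicate 2 (17.2), just outside the top 2490 of each. The kinesin light chain gene klc-2 had 8.69 in the window, and the kinase gene unc-51 had 15.9 at 281 bp upstream.

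In the neuronal cytoskeleton group, 2 of 3 genes were reproducible in the window, beside 8.71% of all protein-coding genes. They were unc-33 and unc-70, and unc-44 was not. Unc-33, a CRMP-family gene needed for axon growth and polarity (IV, 3516886 to 3526602, plus strand), had 56.1 over one of its own coding exons, 135 bp upstream of its last start. It ranked 2245 in replicate 1 (27.2) and 1102 in replicate 2 (27.1). It was the single member reproducible summit over coding sequence, where 36 of all 2490 reproducible summits (1.45%) lay. Unc-70, the beta-spectrin gene (V, 6881338 to 6891839, plus strand), was the only member with a pair of reproducible window summits, of 49.4 at 646 bp and 40.4 at 427 bp upstream. The first ranked 2274 in replicate 1 (27.1) and 1524 in replicate 2 (23.2). The second ranked 4097 in replicate 1 (19.9) and 4219 in replicate 2 (13.2). Unc-44, the ankyrin gene with a body of 29301 bp, had 17.98 at 98 bp upstream.

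The replicates placed many of these summits unevenly. Of the 17 reproducible window summits at members, 12 matched a peak in the top 2490 of replicate 1, 12 one in the top 2490 of replicate 2, and 9 (52.9%) both. Among all 1379 reproducible summits in promoter windows, 63.7% did so in both. When each replicate's own top 2490 peaks were used, 14 members (35.0%) held a window summit in replicate 1, against 8.39% of all protein-coding genes. In replicate 2 there were 12 members (30%), against 8.47%. Of the 14 in replicate 1, 13 were among the 16 and the other was ehs-1, and all 12 in replicate 2 were among the 16. In both replicates at once there were 10 members (25%), against 5.95%. These 10 were maco-1, egl-21, dyn-1, unc-36, syd-2, unc-104, unc-16, unc-14, unc-33 and unc-70.

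**Figure D3:**
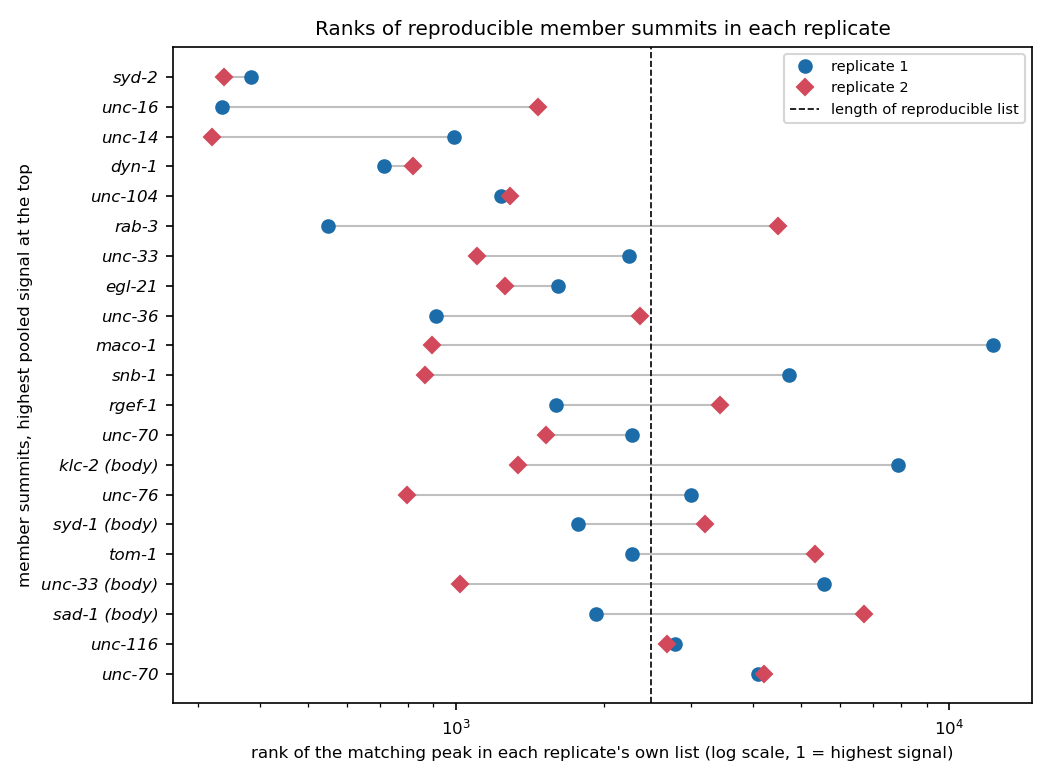
Rank (log scale) of the peak matching each of the 21 reproducible member summits in the list of replicate 1 (circles) and of replicate 2 (diamonds), ordered by pooled signal from the top. The dashed line marks rank 2490; rab-3, maco-1, snb-1, klc-2 and others fall on both sides of it, while syd-2, dyn-1, unc-104 and egl-21 lie left of it in both.

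The reproducible window summits lay upstream of the nearest start of their member and were not shared with neighbours. Those of rab-3 and unc-33 lay inside the gene, upstream of an internal start. The window itself reaches 1000 bp upstream and only 200 bp downstream of a start. All 16 best summits were upstream, at 66 to 715 bp and a median of 346.5 bp, while for all protein-coding genes 95.7% were upstream, at a median of 245.5 bp. Within 500 bp of a start lay 11 of the 16 (68.8%), against 77.9% for all protein-coding genes. None of the 17 summits lay in the promoter window of another protein-coding gene, and each had the member's own start as the nearest. Among all 1379 reproducible summits in promoter windows, 416 (30.2%) lay in the windows of at least 2 genes. With each summit given to the gene with the nearest start only, the member count stayed at 16, against 1307 (6.54%) of all protein-coding genes. The 16 genes were spread over all chromosomes, with 3 of 8 members on I, 2 of 5 on II, 3 of 4 on III, 2 of 6 on IV, 4 of 9 on V and 2 of 8 on X. Over all protein-coding genes the counts were 308 of 2878 on I, 257 of 3449 on II and 352 of 2640 on III. They were 258 of 3281 on IV, 301 of 4994 on V and 264 of 2731 on X.

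**Figure D4:**
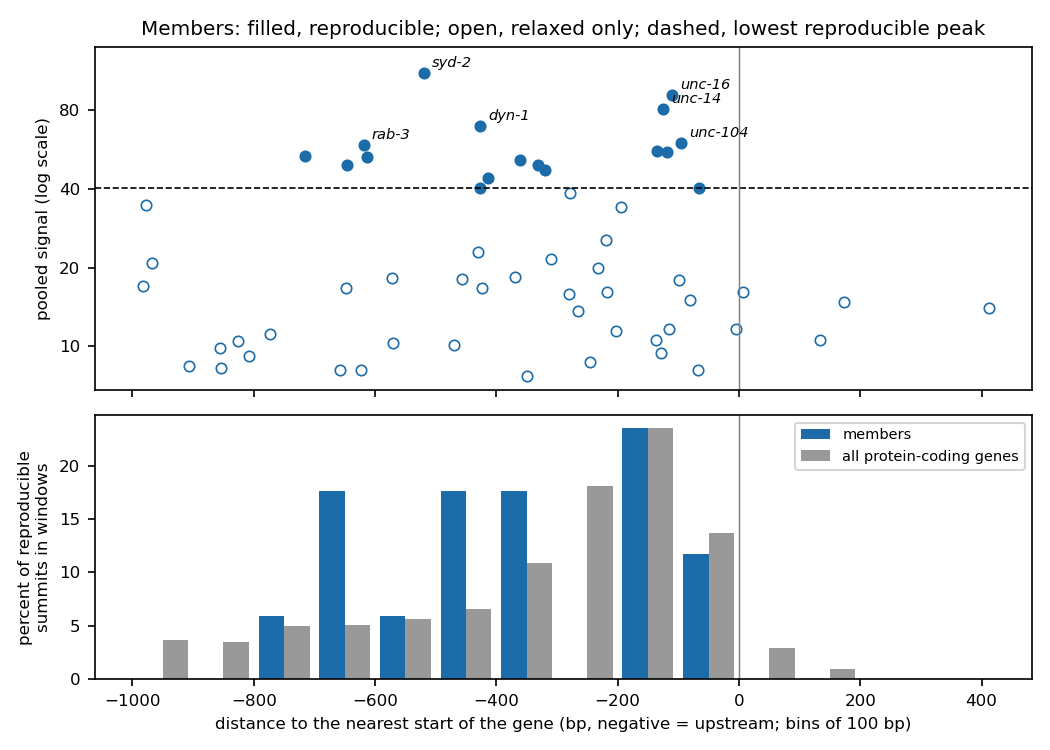
Top, pooled signal (log scale) of each member summit in a promoter window against its distance from the nearest start of the gene, filled where reproducible; the open point right of 200 bp lies in the window of another start of unc-104. Bottom, the percentage of reproducible window summits in bins of 100 bp for the members (blue, 17 summits) and for all protein-coding genes (grey, 1822 gene and summit pairs). No reproducible window summit of a member lies downstream of its nearest start.

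Further reproducible summits lay just beyond the window. With windows of 2000 bp before and 500 bp after each start, 23 members held a reproducible summit, against 2291 (11.5%) of all protein-coding genes. The added genes were unc-64, egl-3, syd-1, sad-1, klc-2, unc-51 and unc-44, with syd-1 and klc-2 counted through summits inside the gene. The syntaxin gene unc-64 had a summit of 77.9 at 1332 bp upstream, which ranked 846 in replicate 1 (42.7) and 366 in replicate 2 (42.5). Egl-3 had 69.4 at 1107 bp upstream, ranked 958 in replicate 1 (40.5) and 884 in replicate 2 (29.6). Both genes, with no strong summit in the window itself, were thus high in each replicate slightly farther upstream.

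The same held for several others. Sad-1 had 80.9 at 1740 bp upstream (ranks 645 in replicate 1 and 925 in replicate 2), and unc-51 had 77.1 at 1448 bp (ranks 946 in replicate 1 and 526 in replicate 2). Unc-116 had 124 at 1531 bp upstream, ranked 577 in replicate 1 (51.7) and 65 in replicate 2 (77.0), which exceeded the syd-2 summit and its own window summit. Unc-70 had 64.4 at 1677 bp upstream, and unc-44 had 43.8 at 1247 bp. The unc-44 summit ranked 5472 in replicate 1 (17.04) and 845 in replicate 2 (30.03). In each of these 7 cases the nearest start of any protein-coding gene was the member's own. In the narrower direction, 500 bp upstream to 100 bp downstream, 12 members were reproducible, against 1354 (6.78%), and rab-3, maco-1, unc-36 and syd-2 were the ones lost.

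Gene bodies were counted in the same way. Of the 40 members, 5 (12.5%) held a reproducible summit in the body, against 2.77% of all protein-coding genes. A pooled one was held by 31 (77.5%), against 33.3%. The body summits of rab-3 and of the unc-33 exon were also counted in the promoter window. Outside every protein-coding promoter window, 4 members held a reproducible body summit, against 330 (1.65%) of all protein-coding genes. The median body was 7690.5 bp long for members and 2027 bp for all protein-coding genes. Per 10 kb of body, the members held 0.153 reproducible summits against 0.114, and 3.49 pooled summits against 2.57. Per length, the body values of members and of all protein-coding genes thus lay closer together than the window values.

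The 5 genes were rab-3 and unc-33, with the summits described above, and syd-1, sad-1 and klc-2. Syd-1 (II, 7585695 to 7594912, minus strand) had 45.7 at 1473 bp downstream of a start, over an exon of the non-coding RNA gene F35D2.16, which ranked 1768 in replicate 1 (30.7) and 3192 in replicate 2 (15.6). Sad-1 (X, 13487552 to 13500668, minus strand) had 40.7 in an intron 1426 bp downstream, at ranks 1923 in replicate 1 (29.5) and 6730 in replicate 2 (9.77). Klc-2 (V, 5576472 to 5581412, minus strand) had 47.6 in an intron 687 bp downstream. Its nearest match ranked 7892 in replicate 1 (13.9) and 1333 in replicate 2 (24.7), and a second overlapping peak of replicate 1 ranked 3016 (23.5) at 148 bp. Unc-33 held a second body summit of 43.2 in an intron 1423 bp downstream of a start, at ranks 5569 in replicate 1 (16.9) and 1020 in replicate 2 (27.9). Of the 6 reproducible body summits, the unc-33 exon summit alone matched a peak in the top 2490 of both replicates.

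**Figure D5:**
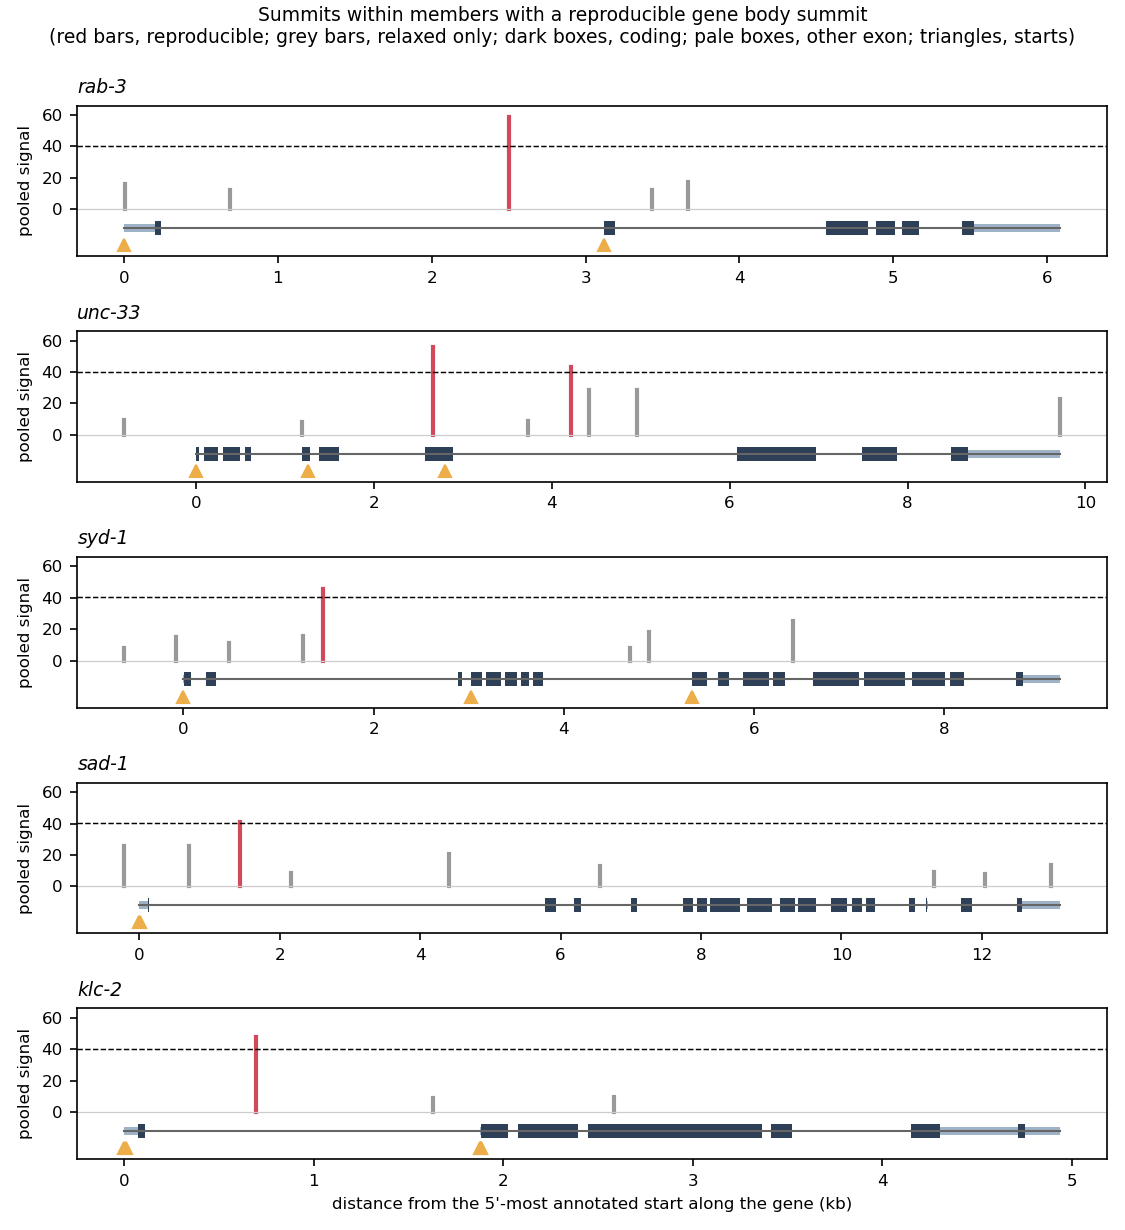
Pooled signal of all summits along the 5 members with a reproducible summit in the gene body, by distance in kb from the 5'-most start; red bars are reproducible, grey bars relaxed only, dark boxes coding sequence, pale boxes other exon sequence, triangles annotated starts, and the dashed line the lowest reproducible signal of 40.3. The red bars of rab-3 (58.9) and unc-33 (56.1) stand upstream of an internal start.

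In window or body together, 19 members (47.5%) held a reproducible summit, against 10.1% of all protein-coding genes, and 38 (95.0%) held a pooled one, against 48.1%. By class of sequence, 13 of the 21 distinct reproducible summits were intergenic, beside 63.7% of all 2490 reproducible summits. In introns lay 4, beside 20.7%, over exons of non-coding genes 3, beside 10.2%, and in a coding exon 1, beside 1.45%. Near the threshold, the members just inside were unc-116 (40.5), the second unc-70 summit (40.4) and the sad-1 intron summit (40.7). Just outside were the unc-14 body summit (39.9), the unc-104 body summit (39.4) and ehs-1 (38.8).

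GAGAGA was the most frequent of the 6 words at the 17 window summits, as it was at all reproducible window summits. The words were chosen with earlier results of these data known, and 17 summits are few for a comparison of shares. The median GC content of the summit base and its 50 neighbours on either side was 47.5%, against 46.5% for all 1379 reproducible window summits and 35.6% for the 27510 pooled peaks that were not reproducible. GAGAGA was present on either strand in 8 of 17 (47.1%), in 27.3% of all reproducible window summits and in 10.6% of the other pooled peaks. The members with it were snb-1, rgef-1, maco-1, unc-36, unc-16, unc-14, unc-76 and unc-33, with overlapping matches counted separately. Unc-76 had 6 matches, in an overlapping run and 1 apart from it, as printed above. Unc-36 and unc-14 had 2 each, and the other members with the word had 1.

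The words linked to Spalt proteins each occurred at 1 or 2 of the 17 summits, too few to compare shares closely. TTGTCT occurred in 2 of 17 (11.8%), against 7.61% of all reproducible window summits and 6.56% of the other pooled peaks. TTGTGT occurred in 1 of 17 (5.88%), against 11.5% of all reproducible window summits and 8.15% of the other pooled peaks. Either of TTGTCT or TTGTGT, forms of a site described for SEM-4, occurred in 2 of 17 member summits (11.8%), unc-14 and unc-76, against 18.1% of all reproducible window summits and 14.1% of the other pooled peaks. ATATT, an AT-rich word bound by vertebrate SALL4, occurred in 2 of 17 (11.8%), unc-116 and unc-14, against 13.6% of all reproducible window summits and 30.6% of the other pooled peaks. TGATAA occurred once, in unc-104, against 3.92% of all reproducible window summits and 8.39% of the other pooled peaks. CACGTG occurred in none, against 4.50% of all reproducible window summits and 1.98% of the other pooled peaks. The syd-2 and dyn-1 windows printed above held none of the 6 words. A match is a description of the letters and not evidence of a bound site.

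Other neuronal genes were counted in the same way from 5 further lists. Of 31 other presynaptic genes, 12 (38.7%) held a reproducible window summit, a share near the 40% of the members, beside 8.71% of all protein-coding genes. The leading ones were egl-30, a Gq alpha subunit gene, with 152 at 35 bp upstream, the RGS gene eat-16 with 143, and unc-108, which encodes the small GTPase RAB-2, with 114.6. They ranked 120, 137 and 228 in replicate 1, and 201, 231 and 602 in replicate 2. Of 31 axon guidance and adhesion genes, 6 (19.4%) did, led by unc-115 with 72.5, sax-7 with 70.9 and unc-40, the netrin receptor gene, with 70.8. In pooled signal egl-30, eat-16 and unc-108 exceeded every window summit of a member. In replicate 2, however, unc-108 (34.97) lay below syd-2 (43.5) and unc-14 (44.7).

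Genes that set a neuron's transmitter or its responses were counted last. None of 19 transmitter identity genes held a reproducible window summit, beside 8.71% of all protein-coding genes. A pooled one was held by 7 of the 19, beside 38.5% of all protein-coding genes. The list is short, and its lack of reproducible summits was not tested. Of 27 genes listed under postsynaptic receptors, 2 (7.41%) held a reproducible window summit. They were ric-3, a receptor chaperone gene, with 73.2 and unc-50 with 44.9, whose summit is nearer to a start of unc-69. The neuronal ion channel list also takes in genes of associated proteins. Of its 25 genes, 2 (8.0%) held a reproducible window summit, unc-1 with 65.2 and unc-80 with 43.3. These last shares lie near the 8.71% of all protein-coding genes. A pooled window summit was held by 18 of the 27 receptor list genes and 13 of the 25 channel list genes. It was held by 28 of the 31 other presynaptic genes and 26 of the 31 axon guidance and adhesion genes. The lists were written with earlier results known, differences between them were not tested, and 5 of 138 names written were not matched.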

How the data were processed

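Per the labels and the file descriptions, the authors deposited relaxed peaks of each replicate and of both pooled, and a list thresholded by IDR. The signal values and −log10 q-values per peak are the authors' own, as deposited. Aligner, caller, thresholds and versions are not given in the sources used here. Control libraries were not analysed here. Only the ce11 lists were used; the 4 ce10 lists were not analysed here. Summits were assigned to windows and gene bodies with all transcripts of protein-coding genes (Ensembl, WBcel235). Replicate values are those of the overlapping peak (at least 1 bp) with the nearest summit. Where a summit fell in several kinds of sequence, coding exon came first, then UTR, non-coding exon, intron and intergenic. Members, other gene lists and words were chosen with earlier results of these data known; named are all 40 members, up to 3 leading genes of each other list and any gene sharing a summit. No test was made: counts stand beside all protein-coding genes. The assignment was tested on simulated data. Alternatives were other windows, starts, list sizes, overlap rules and single replicates. Computation used Python 3.11.15, numpy 2.4.6 and matplotlib 3.10.9.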

Additional observations from a re-analysis of the deposited data

How the results depend on the processing

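Of the 40 members, those with a reproducible window summit numbered 6 among the 1245 reproducible peaks of highest signal and 10 where a peak in the top 2490 of both replicates was required; other settings gave 12 to 23. With either replicate alone the count was 12 to 14. The gene body count of 5 moved to 1 among those 1245, to 1 with the top of both replicates and to 10 where any overlap of the peak counted. In window or body together the 19 moved to 6 and to 10 under the first 2 of these. Shares over all protein-coding genes moved as well, to 4.92% and 5.79% for the window, 1.37%, 1.74% and 5.75% for the body, and 5.61% and 6.67% for both. The 5.79% (1157 genes) follows a different rule from the 5.95% given above. That 5.95% (1188 genes) placed each replicate's own top peaks in windows separately. The members' median best window signal of 36.7 was 25.5 in the narrower window, 47.3 in the wider one and 34.5 with the 5'-most start alone. In the single replicates' lists, whose scale differs, it was 13.4 to 16.3. With protein-coding transcripts alone, a setting added after seeing the data, the window counts were 16 and 34 as before. The window changed the best signal of unc-116 and unc-70, as described. No paired analysis was possible because there is 1 group. The unknown depth limits any statement on absent summits.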
